A study of Homo sapiens with 6 samples.

Results

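Collagens are the rod-like proteins of the extracellular matrix, and each is built from 3 polypeptide chains that wind into a triple helix. The genes of these chains were found by their symbol: a protein-coding gene whose name is COL, a type number, A and a chain number. This gave 44 collagen chain genes among the 60664 genes of the count table, and every one of them is accounted for here.

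The cells were SiHa, an established human cervical squamous carcinoma line, in its parental form (labelled PR). RNA-seq of poly-A RNA was made from 3 control libraries, SiHa PR, and from 3 libraries of the same parental cells with P4HA3 overexpression, SiHa PR P4HA3. The comparison asks how the RNA of the cell changed when P4HA3 was raised. Nothing in the labels says whether the 3 libraries of a group came from separate cultures, so p-values measure the spread between these libraries only. The labels do not say whether the overexpressing cells were 1 clone or a pool, or whether the control cells carried an empty vector. If they did not, the vector and P4HA3 cannot be told apart.

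A newly made collagen chain is modified in the endoplasmic reticulum before it folds. Prolyl 4-hydroxylase, a complex of a catalytic alpha subunit (P4HA1, P4HA2 or P4HA3) and the beta subunit P4HB, turns prolines of the Gly-X-Y repeat into 4-hydroxyproline, and these residues keep the triple helix stable at body temperature. Fibrillar collagens (types I, II, III, V, XI, XXIV and XXVII) then form cross-banded fibrils, type IV forms the network of basement membranes, and FACIT collagens sit on the surface of fibrils. Type VI forms beaded filaments, type VII the anchoring fibrils below squamous epithelium, type VIII hexagonal networks, and types XV and XVIII, the multiplexins, lie in or near basement membranes. Epithelial tumour cells are generally poor makers of fibrillar collagen, which in tissue comes mostly from fibroblasts.

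The promoter windows of 5 collagen genes called lower below are shown for reference to where their transcription starts, together with the window that 2 type IV genes share. Each is the RefSeq window on GRCh38.p14, 5′ to 3′ on the strand of the gene, of 300 bases of which 250 lie before the annotated start. Capitals mark the GC box GGGCGG, the TATA box TATAAA and the CCAAT box CCAAT, searched on both strands, and neighbouring matches can overlap. Of the 44 genes, 32 had a window in the reference table. COL1A1, COL1A2, COL2A1, COL3A1, COL5A2, COL6A1, COL6A5, COL8A1, COL9A3, COL14A1, COL20A1 and COL22A1 had none.
COL15A1, chr9:98943657-98943956, plus strand: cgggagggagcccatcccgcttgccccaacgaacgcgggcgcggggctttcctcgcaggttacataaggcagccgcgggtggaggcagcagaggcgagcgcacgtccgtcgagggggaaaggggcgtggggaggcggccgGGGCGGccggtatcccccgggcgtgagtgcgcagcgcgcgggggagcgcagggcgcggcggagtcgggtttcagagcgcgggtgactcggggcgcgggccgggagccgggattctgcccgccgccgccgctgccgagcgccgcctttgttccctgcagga
COL18A1, upstream start, chr21:45404915-45405214, plus strand: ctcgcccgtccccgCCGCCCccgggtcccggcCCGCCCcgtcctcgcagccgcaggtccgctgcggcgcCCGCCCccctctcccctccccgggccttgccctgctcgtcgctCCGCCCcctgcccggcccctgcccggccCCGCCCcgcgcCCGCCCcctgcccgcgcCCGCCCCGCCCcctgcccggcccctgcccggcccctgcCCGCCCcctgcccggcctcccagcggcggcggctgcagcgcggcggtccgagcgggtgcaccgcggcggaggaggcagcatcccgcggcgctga
COL18A1, downstream start, chr21:45455272-45455571, plus strand: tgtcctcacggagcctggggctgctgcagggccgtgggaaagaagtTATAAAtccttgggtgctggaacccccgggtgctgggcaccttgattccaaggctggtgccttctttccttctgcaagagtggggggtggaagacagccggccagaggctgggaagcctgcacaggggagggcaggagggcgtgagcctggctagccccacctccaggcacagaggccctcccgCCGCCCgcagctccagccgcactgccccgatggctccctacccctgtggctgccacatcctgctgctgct
COL6A2, chr21:46097862-46098161, plus strand: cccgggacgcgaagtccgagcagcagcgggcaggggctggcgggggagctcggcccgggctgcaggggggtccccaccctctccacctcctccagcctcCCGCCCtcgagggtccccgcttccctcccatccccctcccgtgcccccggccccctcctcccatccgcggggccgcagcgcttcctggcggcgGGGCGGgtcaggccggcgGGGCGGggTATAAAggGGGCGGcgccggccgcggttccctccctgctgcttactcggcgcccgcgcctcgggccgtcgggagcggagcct
COL8A2, chr1:36125173-36125472, minus strand: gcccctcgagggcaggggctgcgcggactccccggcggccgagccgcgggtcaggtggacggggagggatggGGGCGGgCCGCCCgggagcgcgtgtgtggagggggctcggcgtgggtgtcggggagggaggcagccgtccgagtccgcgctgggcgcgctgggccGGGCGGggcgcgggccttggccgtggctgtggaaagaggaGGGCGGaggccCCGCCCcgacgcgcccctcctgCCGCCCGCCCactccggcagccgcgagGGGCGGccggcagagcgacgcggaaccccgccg
COL7A1, chr3:48595280-48595579, minus strand: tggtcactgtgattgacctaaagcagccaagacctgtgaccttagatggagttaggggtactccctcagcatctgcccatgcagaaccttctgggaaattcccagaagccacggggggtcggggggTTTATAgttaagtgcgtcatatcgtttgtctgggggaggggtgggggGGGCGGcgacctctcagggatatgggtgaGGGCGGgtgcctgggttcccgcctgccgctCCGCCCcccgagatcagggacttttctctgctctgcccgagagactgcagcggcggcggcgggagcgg
COL4A1, with the start of COL4A2 inside it, chr13:110307108-110307407, minus strand: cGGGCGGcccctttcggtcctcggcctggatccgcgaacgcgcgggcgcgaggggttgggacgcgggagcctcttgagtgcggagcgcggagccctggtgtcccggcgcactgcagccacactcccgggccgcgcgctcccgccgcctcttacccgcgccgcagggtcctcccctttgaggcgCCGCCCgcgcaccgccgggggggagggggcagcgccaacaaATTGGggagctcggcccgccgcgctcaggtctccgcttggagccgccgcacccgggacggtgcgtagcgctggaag

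The COL8A2 window held 8 GC boxes, the window at the upstream COL18A1 start held 9, and that of COL15A1 held 1. A TATA box stood in the COL6A2 and COL7A1 windows and in the window of the downstream COL18A1 start, at differing distances from the start. Over the windows of collagen genes, 54.5% held a GC box, 18.2% a TATA box and 31.8% a CCAAT box. Over all 35116 windows in the table these shares were 45.0%, 11.5% and 34.6%. A match describes the letters of the window only.

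P4HA3 was read first as a check of the labels. Its counts were 86, 62 and 93 in the control libraries and 45042, 44775 and 49097 in the overexpressing libraries, a log2 fold change of 9.15 ± 0.101 (SE). All libraries therefore carried the level that their label gives. Total counts ran from 21773488 to 24939948 per library. The 11 carcinoma markers were KRT5, KRT6A, KRT7, KRT8, KRT14, KRT17, KRT18, KRT19, EPCAM, CDH1 and TP63. They summed to 11500 to 13100 CPM (counts scaled to library depth by TMM) in control and to 10800 to 12300 CPM with overexpression. Of these, KRT7, KRT8, KRT17 and KRT18 stood between 659 and 5620 CPM in every library, while KRT5 and TP63, markers of basal squamous cells, were below 0.6 CPM. Across genes the log2 fold change fell with the GC content of the transcript (Spearman rho of -0.581, genes not being independent), and several collagen transcripts are rich in G and C. Libraries of the same group also differed by GC content. The deviation of a library from its group mean had a rho of 0.22, 0.382 and -0.524 in control and of 0.451, -0.48 and 0.0769 with overexpression. Calls that an adjustment for GC content and length of the transcript (the correction) added or ended are given beside the uncorrected ones. Counts of ACTG2, a smooth muscle actin, were 0, 1 and 30 in the control libraries and 40, 1 and 44 in the overexpressing libraries. It belongs to a list of 6 smooth muscle markers (MYH11, DES, ACTG2, CNN1, ACTA2 and LMOD1). Of these, 2 were tested and none was called, and 2 were at 3 counts or fewer in every library. The 6 summed to 6.86 to 10.1 CPM in control and to 7.69 to 10.6 CPM with overexpression. Leaving out the 3 libraries with ACTG2 counts of 30 or more sets 2 control libraries against 1 overexpressing library. No spread can be taken within the overexpressing group of that fit, and its counts of called genes are not read as a result. It is among the alternative fits counted below, so each tally of alternatives holds 1 fit that is not read.

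Of the 44 collagen genes, 29 had enough counts to be tested and 15 did not. With P4HA3 overexpression 7 genes were lower and none was higher at an adjusted p under 0.05 (edgeR quasi-likelihood test, Benjamini-Hochberg over 15130 genes). The lower genes were COL15A1, COL9A3, COL8A2, COL18A1, COL6A2, COL6A1 and COL7A1. Over all genes tested, 11.4% were called lower and 9.36% higher. At an unadjusted p under 0.05 (edgeR), 9 collagen genes were lower and 3 were higher. The share over all genes at that threshold was not computed, so nothing is read from these counts or from those of a class below. DESeq2 called 1 higher, COL12A1, and limma-voom called 0 higher. The median log2 fold change of the 29 genes was -0.152, beside 0.00555 for all genes tested. With the GC content and length correction, 3 genes were lower (COL15A1, COL18A1 and COL6A2) and 3 were higher (COL5A1, COL11A2 and COL12A1), the median was -0.0564, and the shares over all genes were 7.94% lower and 10.6% higher. Groups that did not overlap were seen in 9 genes on the lower side and 2 on the higher side, where the shares over all genes were 20.4% and 19.7%.

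**Figure D1:**
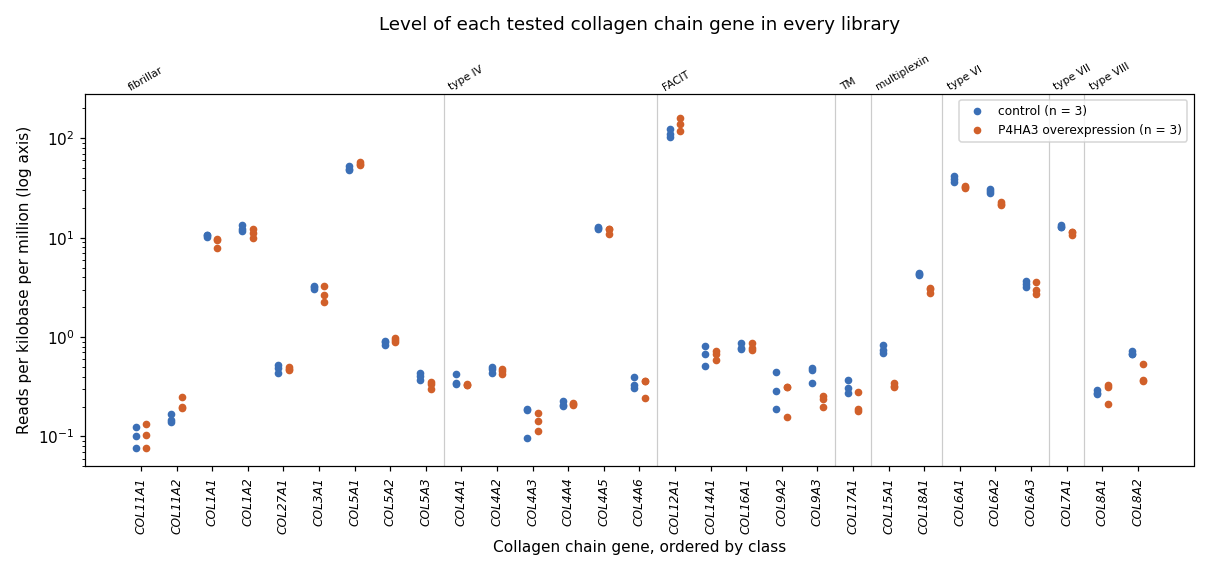
Level of each of the 29 tested collagen chain genes, in RPKM by canonical transcript on a log axis, with 1 point per library and genes ordered by class (TM stands for transmembrane). COL12A1, COL5A1, COL6A1 and COL6A2 lie above the rest, and the control and overexpression points of most genes overlap.

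The collagen RNA of these cells was dominated by few chains. Levels between genes are compared in RPKM, the reads per kilobase of canonical transcript scaled to library depth. COL12A1 stood at 126 RPKM over all libraries, COL5A1 at 52.6, COL6A1 at 35.7 and COL6A2 at 25.7. COL4A5, COL7A1 and COL1A2 followed at 12.2, 12.1 and 11.7 RPKM, an order in which the neighbours lie within their spread. FACIT chains, nearly all of it COL12A1, took 36.5% to 41.3% of the summed collagen RPKM of a control library and 41.7% to 49.4% of an overexpressing library. Fibrillar chains took 25.4% to 26.7% in control and 24.5% to 28.4% with overexpression. Type VI chains took 22.3% to 25.1% and 17.1% to 20.5%. The difference in these shares was not tested. All collagen genes together took 0.23% to 0.299% of the counts of a library.

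Both multiplexins were lower, with and without the correction. COL15A1, the type XV chain (chr9:98943179-99070792, plus strand), stood at 3.9, 4.36 and 3.64 CPM in the control libraries and at 1.67, 1.65 and 1.81 CPM in the overexpressing libraries. The groups lie far apart, and the 3 overexpressing libraries are close to each other. The level was 2.31-fold lower, with a log2 fold change of -1.21 ± 0.144 (SE) and an adjusted p of 0.00114 (edgeR). COL18A1, the type XVIII chain whose C-terminal fragment is endostatin (chr21:45405165-45513720, plus strand), stood at 23.6, 23.4 and 22.6 CPM in control and at 16.7, 15.1 and 16.4 CPM with overexpression. The groups did not overlap, and the level was 1.44-fold lower, with a log2 fold change of -0.53 ± 0.079 and an adjusted p of 0.00289 (edgeR). The correction left COL15A1 at -1.13 and took COL18A1 to -0.28 ± 0.0621, with an adjusted p of 0.0104 (edgeR). COL18A1 shares 1563 exon bases with SLC19A1 on the other strand and COL15A1 shares 137 with a long noncoding RNA. Per the supplementary methods the second cDNA strand was marked with dUTP and removed, so the reads carry strand. Whether the counting used strand is not given in the sources used here. It is therefore not known whether reads of these pairs were told apart.

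**Figure D2:**
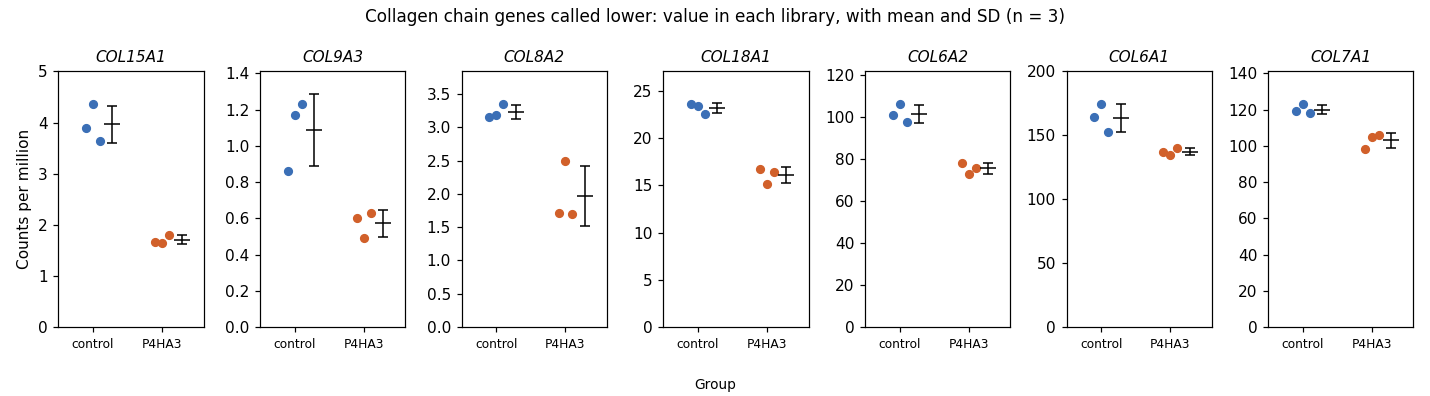
CPM of the 7 collagen chain genes called lower, with 1 point per library and the mean with SD beside each group (n = 3), on axes that start at 0. In each panel every overexpressing library lies below every control library, with COL15A1 going from a mean of 3.97 to 1.71 CPM.

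Type VI is a filament of alpha1 and alpha2 chains with a longer partner, and 2 of its 3 tested genes were lower. COL6A2, the alpha2 chain (chr21:46098112-46132848, plus strand), stood at 101, 106 and 97.3 CPM in control and at 77.9, 72.9 and 75.8 CPM with overexpression. COL6A1, the alpha1 chain (chr21:45981770-46005050, plus strand), stood at 164, 174 and 152 CPM and at 137, 134 and 140 CPM. Neither gene had overlapping groups. The log2 fold change was -0.42 ± 0.0582 for COL6A2 (adjusted p of 0.00203, edgeR) and -0.25 ± 0.0612 for COL6A1 (adjusted p of 0.0197, edgeR). With the GC content and length correction COL6A2 was at -0.16 (adjusted p of 0.0179, edgeR) and COL6A1 at -0.02 (adjusted p of 0.71, edgeR), so that the call of COL6A1 was lost.

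COL6A3, the alpha3 chain, averaged 36.0 ± 2.39 CPM in control and 32.3 ± 4.52 CPM with overexpression (SD, n = 3), with a log2 fold change of -0.16 and an adjusted p of 0.273 (edgeR). Its value was -0.0715 without overexpression replicate 3 and -0.272 without overexpression replicate 1, where it was called lower (adjusted p of 0.0251, edgeR). Without the 3 libraries with ACTG2 counts, where 1 overexpressing library remains, the value was -0.251. Per kilobase, COL6A1 exceeded COL6A2 by 1.33, 1.35 and 1.28 in the control libraries and by 1.45, 1.51 and 1.51 in the overexpressing libraries. The ratio was higher in each overexpressing library, with an exact permutation p of 0.1 (two-sided), the smallest that 3 against 3 allows. The ratio of COL6A2 to COL6A3 was 8.62 ± 0.48 and 7.22 ± 0.879, with overlapping groups and an exact permutation p of 0.2. These values are per kilobase of canonical transcript. By merged exons the ratios over all libraries were 1.65 for COL6A1 to COL6A2 and 10.5 for COL6A2 to COL6A3. Ratios of 9 chain pairs were tested, and none could pass a threshold of 0.05 in this design. COL6A5 was at 0 in all libraries and COL6A6 had at most 2 counts.

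COL7A1 is the only chain of type VII, the anchoring fibril (chr3:48564073-48595329, minus strand). It stood at 119, 123 and 118 CPM in control and at 98.0, 105 and 106 CPM with overexpression. The groups did not overlap, and the level was 1.17-fold lower, with a log2 fold change of -0.22 ± 0.0553 and an adjusted p of 0.0215 (edgeR). With the correction the value was -0.03 and the adjusted p 0.583 (edgeR). Leaving out control library 1, control library 2 or overexpression library 3 also ended the call, as it did for COL6A1.

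Of the hexagonal network chains, COL8A2 was lower and COL8A1 was not called. COL8A2 (chr1:36095239-36125222, minus strand) stood at 3.16, 3.19 and 3.35 CPM in control and at 1.72, 2.49 and 1.7 CPM with overexpression. The middle overexpressing library lay closer to control than the other two, without reaching it. The call rested on a log2 fold change of -0.72 ± 0.172, with an adjusted p of 0.0182 (edgeR), and -0.53 with an adjusted p of 0.0586 (edgeR) after correction. It was also lost without control replicate 1, control replicate 2 or overexpression replicate 3. Without the 3 libraries with ACTG2 counts, where 1 overexpressing library remains, the value was -0.342. COL8A1 averaged 1.52 ± 0.0682 and 1.57 ± 0.34 CPM (SD, n = 3). COL10A1, the chain of hypertrophic cartilage, was at 0 in all libraries.

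FACIT chains gave 1 call, at a low level, and the most abundant gene was near the threshold. COL12A1, the type XII chain that coats type I fibrils and the most abundant collagen RNA here (chr6:75084326-75206267, minus strand), stood at 1200, 1300 and 1440 CPM in control and at 1380, 1880 and 1650 CPM with overexpression. The lowest overexpressing library lay inside the control range. Its log2 fold change was 0.32 ± 0.108 with an adjusted p of 0.061 (edgeR), and 0.18 ± 0.0531 with an adjusted p of 0.0337 (edgeR) after correction. It was called higher in 7 of 15 alternatives, 1 of which kept 1 overexpressing library and is not read. Leaving out 1 library gave values from 0.205, without overexpression replicate 2, to 0.426, without overexpression replicate 1, where it was called, and without the 3 libraries with ACTG2 counts the value was 0.593. COL9A3, the alpha3 chain of type IX, stood at 0.862, 1.17 and 1.23 CPM in control and at 0.601, 0.489 and 0.631 CPM with overexpression. Its groups did not overlap, at a level of some 11 to 30 counts per library. Its log2 fold change was -0.91 ± 0.249 (adjusted p of 0.0294, edgeR) and -0.62 after correction (adjusted p of 0.116, edgeR), and the gene shares 155 exon bases with TCFL5 on the other strand. The call held in 7 of 14 alternatives. COL14A1, COL16A1 and COL9A2 had adjusted p-values of 0.936, 0.989 and 0.735 (edgeR). COL9A1, COL19A1 and COL22A1 were at 0, and COL20A1 and COL21A1 had at most 5 counts in a library.

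**Figure D3:**
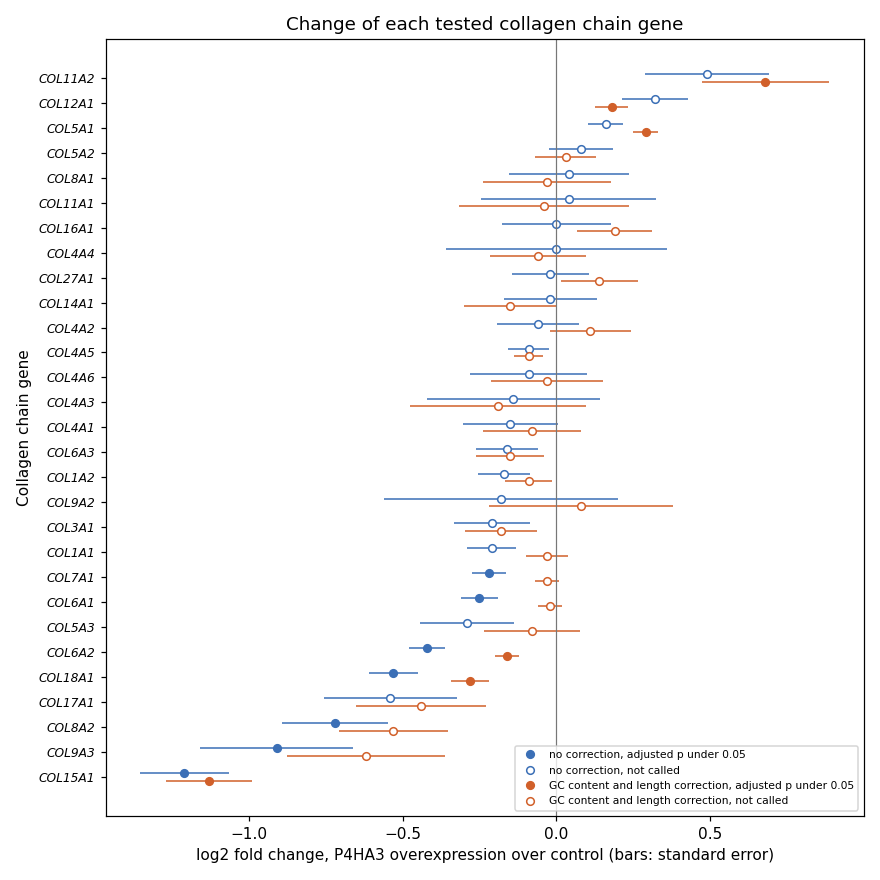
The log2 fold change of each tested collagen chain gene with its standard error, without correction in blue and with the GC content and length correction in orange, where filled points have an adjusted p under 0.05 (edgeR). COL15A1, COL18A1 and COL6A2 are filled in both colours, while COL6A1, COL7A1, COL8A2 and COL9A3 are filled in blue only and COL5A1, COL11A2 and COL12A1 in orange only.

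None of the 9 tested fibrillar genes was called, at values from -0.29 to 0.49 on the log2 scale; 3 had an unadjusted p under 0.05 by edgeR, and DESeq2 and limma-voom called 0. Other settings did call fibrillar genes. COL5A1 was higher when scaled by library size alone (0.175), COL1A1 was lower under the replicate block (-0.215), and without overexpression replicate 1 COL1A1 (-0.263), COL1A2 (-0.245) and COL3A1 (-0.36) were lower and COL5A1 (0.175) was higher. COL5A1, the alpha1 chain of type V, which starts fibrils, led the class (chr9:134641803-134844843, plus strand). It stood at 402, 440 and 416 CPM in control and at 457, 465 and 482 CPM with overexpression. The groups did not overlap, yet the log2 fold change of 0.16 ± 0.0575 had an adjusted p of 0.0732 (edgeR). After correction it was 0.29 ± 0.0397 with an adjusted p of 0.000676 (edgeR). COL5A2, whose product joins 2 alpha1(V) chains in the common form of type V, was at 0.909 RPKM. Over all libraries COL5A1 exceeded it 57.9-fold per kilobase of canonical transcript and 46.9-fold per kilobase of merged exons. By canonical transcript the ratio averaged 56.3 ± 2.12 in control and 59.5 ± 4.62 with overexpression (exact permutation p of 0.4, two-sided).

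COL11A2, of type XI, stood at 1.07, 0.939 and 0.899 CPM in control and at 1.59, 1.25 and 1.26 CPM with overexpression. The groups did not overlap, with a log2 fold change of 0.49 (adjusted p of 0.102, edgeR) and of 0.68 after correction (adjusted p of 0.0401, edgeR). COL1A1 averaged 61.7 ± 1.67 and 53.3 ± 5.67 CPM and COL1A2 62.9 ± 3.97 and 56.0 ± 5.88 CPM (SD, n = 3), with adjusted p-values of 0.0818 and 0.159 (edgeR). The ratio of COL1A1 to COL1A2, whose products join 2 to 1 in type I collagen, was 0.83 per kilobase of canonical transcript and 1.16 per kilobase of merged exons, so that the higher chain depends on the length used. COL3A1 averaged 17.5 ± 0.51 and 15.1 ± 2.79 CPM, and COL5A3 2.5 ± 0.211 and 2.04 ± 0.173 CPM. COL2A1 and COL24A1 had at most 4 counts in a library.

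Fibroblast markers were present at a low level in every library, beside the fibrillar genes. The 6 markers (PDGFRA, PDGFRB, DCN, LUM, THY1 and FAP) summed to 52.8 to 59.9 CPM in control and to 44.4 to 57.8 CPM with overexpression, and none of them was called by edgeR. With the correction LUM was lower (-0.40, adjusted p of 0.0157, edgeR). DCN took the largest part, 20.7 to 29.8 CPM. Their part in the fibrillar levels was not tested, and in bulk RNA fewer cells of a type and less RNA per cell cannot be told apart. VWF, CDH5 and KDR of endothelium and PTPRC, CD3E and CD68 of leukocytes were at 3 counts or fewer in every library. Of the same lists PECAM1 (-1.03) and CD14 (-1.15) were lower, with adjusted p-values of 0.00494 and 0.000757 (edgeR), each being the 1 tested gene of its list. The 4 leukocyte genes summed to 91.3 to 110 CPM in control and to 35.1 to 50.9 CPM with overexpression, nearly all of it CD14. The 4 endothelial genes summed to 2.57 to 3.47 CPM and to 1.33 to 1.62 CPM. Of the 9 tested carcinoma markers 4 were lower, KRT6A (-1.26), the epithelial cadherin CDH1 (-0.77), KRT18 (-0.40) and KRT17 (-0.32), with edgeR adjusted p-values of 0.00232, 0.00114, 0.0108 and 0.031. With the correction KRT17 was not called and KRT7 was higher (0.33), which made 3 lower and 1 higher. The shares over all genes were 11.4% lower and 9.36% higher, or 7.94% and 10.6% with the correction. Nothing is read from the counts of these marker lists alone.

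The 6 type IV genes were all tested and none was called, with log2 fold changes from -0.15 to 0.0, and no gene had groups apart. By edgeR, 0 of them had an unadjusted p under 0.05, and DESeq2 and limma-voom called 0. COL4A5, the most abundant (chrX:108439838-108697545, plus strand), stood at 82.1, 79.3 and 84.1 CPM in control and at 70.6, 79.9 and 80.8 CPM with overexpression, with a log2 fold change of -0.09 ± 0.0662 and an adjusted p of 0.359 (edgeR).

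These genes lie in head-to-head pairs. The nearest annotated starts are 127 bases apart for COL4A1 and COL4A2, 419 for COL4A3 and COL4A4 and 380 for COL4A5 and COL4A6. COL4A1 and COL4A2, whose products form the common network of basement membranes and whose starts both lie in the last window printed above, had like levels. Their ratio per kilobase of canonical transcript was 0.778 ± 0.0597 in control and 0.737 ± 0.0506 with overexpression. Per kilobase of merged exons it was 1.04 ± 0.0796 and 0.983 ± 0.0675, so that the higher chain depends on the length used. COL4A5 and COL4A6 differed widely, with a ratio of 36.9 ± 4.02 and 37.4 ± 5.97 (SD, n = 3), or of 28.2 ± 3.07 and 28.6 ± 4.56 by merged exons. The ratio did not differ between groups beyond its spread (exact permutation p of 0.9, two-sided).

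Of the transmembrane chains only COL17A1, the hemidesmosomal collagen, was tested. It stood at 1.52, 2.07 and 1.72 CPM in control and at 1.07, 1.56 and 1.02 CPM with overexpression, and the groups overlapped through overexpression replicate 2. The log2 fold change was -0.54 ± 0.217 with an adjusted p of 0.0981 (edgeR), and without that library it passed the threshold. COL13A1 had 2 to 6 counts in each library and COL23A1 and COL25A1 at most 3. COL26A1 and COL28A1, outside the classes above, had at most 4. For the genes at 0 in all libraries, a count of 0 allows up to 3 counts in a library, by counting error only.

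The genes that act on collagen were read from 8 lists with 113 genes, of which 100 were tested. Of these 18 were lower and 12 higher, with a median log2 fold change of -0.0101. With the correction the balance was 16 lower and 21 higher. The counts of each list below stand beside shares over all genes of 11.4% lower and 9.36% higher, or 7.94% and 10.6% with the correction, and nothing is read from a list's count alone. Among the hydroxylation genes 3 of 14 were lower and 1, P4HA3, higher. The other subunits were not called: P4HA1 stood at -0.07, P4HA2 at 0.0 and P4HB at 0.12 on the log2 scale, with adjusted p-values of 0.49, 0.966 and 0.228 (edgeR). The lysyl hydroxylases PLOD1, PLOD2 and PLOD3 stood at -0.07, 0.18 and -0.04, and none was called by this first test. PLOD2 was called higher with no filter on low counts (0.192, adjusted p of 0.0344, edgeR) and without overexpression replicate 1. The lower genes were P3H3 (-0.44) and P3H4 (-0.35) of the prolyl 3-hydroxylase family and COLGALT1 (-0.19), which adds galactose to hydroxylysine. The correction ended these 3 calls and gave 6 higher and 1 lower in the list. Under it P4HA1 was lower (-0.23, adjusted p of 0.0162, edgeR), and the genes higher beside P4HA3 were P4HB (0.28), PLOD3 (0.18), PPIB (0.18), P3H1 (0.17) and P3H2 (0.17).

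Genes of folding and export were higher in 4 and lower in 1 of 16. HSPA5, the main chaperone of the endoplasmic reticulum, stood at 1510, 1480 and 1510 CPM in control and at 2060, 2140 and 2080 CPM with overexpression. The groups lie far apart, with a log2 fold change of 0.48 ± 0.0589 and an adjusted p of 0.00127 (edgeR). SEC24D (0.41) and SEC23A (0.35), coat proteins of the vesicles that carry procollagen, and the prolyl isomerase FKBP14 (0.27) were higher, while FKBP10 (-0.51), a collagen isomerase, was lower. With the correction FKBP14 and FKBP10 were not called, SEC13 (0.23), another coat protein, was higher, and SPARC (-0.38), a collagen-binding matrix protein, was lower. SERPINH1, the collagen chaperone HSP47, was at 0.06 with an adjusted p of 0.472 (edgeR) and at 0.26 with an adjusted p of 0.00127 (edgeR) after correction.

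Of the propeptide removal genes, BMP1, the C-proteinase (-0.25), and FURIN (-0.21) were lower and PCOLCE2 (0.34), an enhancer of that proteinase, was higher. The correction ended the calls of BMP1 and FURIN. PCOLCE2 kept its call with the correction but was called in only 9 of 15 alternatives. It was not called with DESeq2 (adjusted p of 0.0786, DESeq2) or with any 1 of the control libraries left out. Of 5 cross-linking genes TGM2, a transglutaminase, was lower. It stood at 1470, 1490 and 1370 CPM in control and at 705, 526 and 692 CPM with overexpression, a log2 fold change of -1.17 ± 0.103 with an adjusted p of 0.000342 (edgeR). The groups lie far apart, and the lysyl oxidases of the list were not called.

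Among 20 fibril and basement membrane partners 4 were lower and 2 higher. FBLN1 (-0.45), a fibulin, AGRN (-0.29), the proteoglycan agrin, LAMB3 (-0.26), a laminin chain, and FN1 (-0.21), fibronectin, were lower. TGFBI (0.46), a matrix protein that binds collagen, and TNC (0.28), tenascin C, were higher. With the correction the calls of AGRN and LAMB3 were lost, PLEC (0.29), the linker plectin, was higher, and LUM (-0.40), a small proteoglycan of fibrils, was lower. Over 15 alternatives FBLN1 and TGFBI were called in 15, TNC in 13 and FN1 in 10. Of 11 collagen receptor genes ITGB4 (-0.64), the laminin-binding integrin subunit of hemidesmosomes, DDR1 (-0.32) and MRC2 (-0.30) were lower. The calls of DDR1, a collagen-binding kinase, and MRC2, which takes up collagen fragments, were lost with the correction. Under it the collagen-binding integrin subunits ITGA2 (-0.53), ITGA11 (-0.40) and ITGA1 (-0.37) were lower, with edgeR adjusted p-values of 0.000219, 0.0277 and 0.0234.

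In the list of collagen cleavage, MMP1, an interstitial collagenase, was higher at 0.575, 0.704 and 1.02 CPM in control and 2.02, 1.73 and 1.66 CPM with overexpression. All values are low and the groups do not overlap (log2 fold change 1.22 ± 0.232, adjusted p of 0.0079, edgeR). ADAM9 (0.40) was higher, and MMP2 (-0.63), a gelatinase, and TIMP1 (-0.34), an inhibitor of these enzymes, were lower. With the correction the sheddase ADAM17 (-0.15) was lower too. Of the TGF-beta list, TGFB1 (-0.41) and TGFB3 (-0.40), the ligands, were lower, and the matricellular genes CCN1 (0.78) and CCN2 (0.40) were higher, as 2 each of 15 tested. With the correction 3 were lower and 4 higher, with TGFB2 (-0.28) added on the lower side and SMAD7 (0.40) and SMAD3 (0.15) on the higher side.

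**Figure D4:**
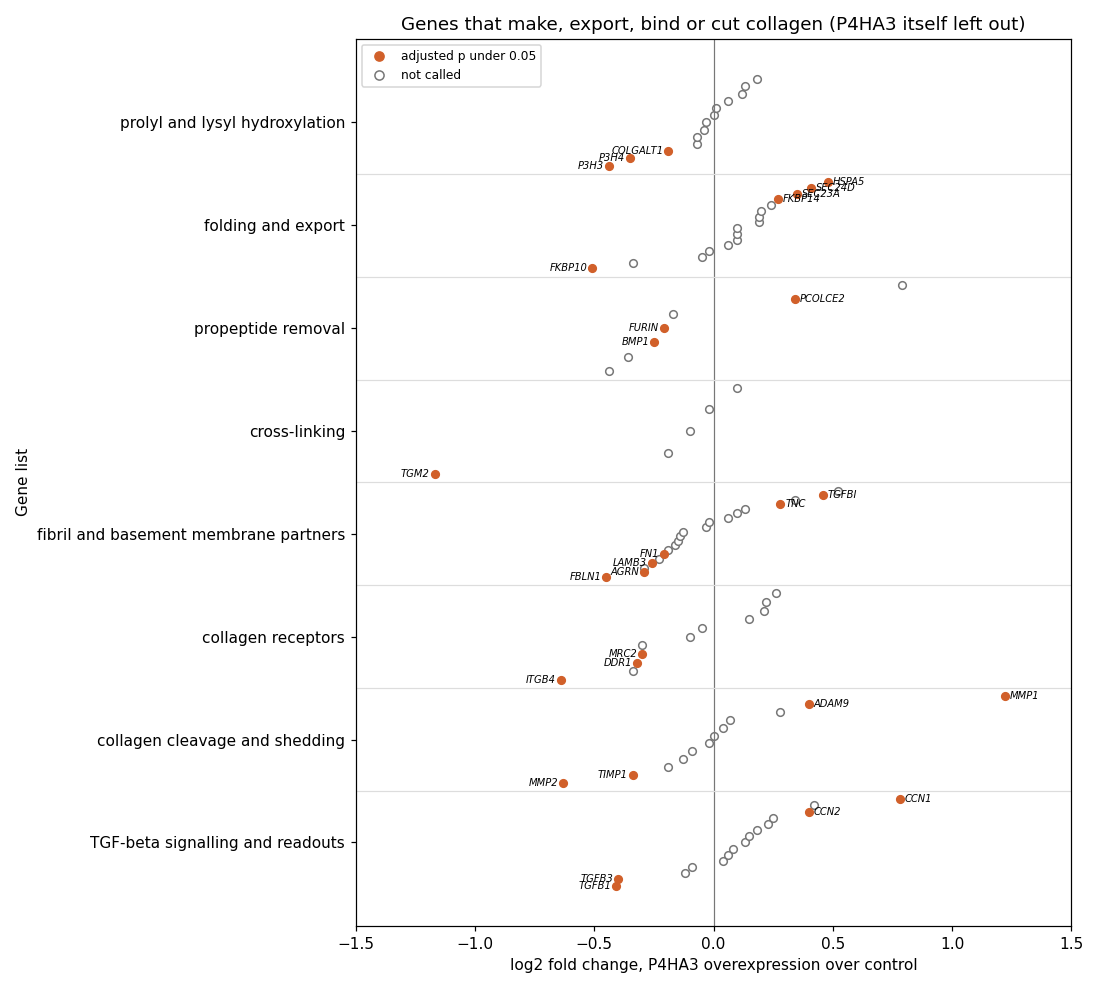
The log2 fold change of the tested genes of the 8 lists, with P4HA3 left out, where filled points have an adjusted p under 0.05 (edgeR) and open points do not. TGM2 lies farthest to the left at -1.17 and MMP1 farthest to the right at 1.22.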

How the data were processed

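Poly-A RNA of 6 SiHa libraries was sequenced, and the authors deposited 1 table of raw read counts per Ensembl gene, with no normalization. Per the supplementary methods reads were aligned with STAR and counted with HTSeq on GRCh38, whereas the submitters' processing notes name HISAT2. Of 60664 genes, 60463 matched GENCODE 44, which gave symbols, positions, canonical transcript length and GC content. Groups follow the sample titles.

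Counts were tested with edgeR 4.0.16 (R 4.3.3; quasi-likelihood, TMM, filterByExpr with a minimum count of 10, Benjamini-Hochberg over 15130 genes, call at an adjusted p under 0.05), after checking the code on simulated data. DESeq2 1.42.0, limma-voom 3.58.1, other scalings, no filter, a replicate block, each library left out, and a GC content and length correction (mgcv 1.9.3) were alternatives. Library totals were 21773488 to 24939948, and the common coefficient of variation was 7.66%. CPM values are TMM-scaled. RPKM divides them by canonical transcript length.

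The collagen genes and all gene lists were chosen with earlier results of these data known. Library values were printed for called genes and for the most abundant gene of a class. COL11A2, and list genes called only with the correction, were added after their values were seen. From each other list, the 6 called genes of at least 1 CPM with the largest change were named. The submitters' growth protocol describes uterine smooth muscle, while the cell line label and the study give SiHa.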

Additional observations from a re-analysis of the deposited data

How the results depend on the processing

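COL15A1, COL18A1 and COL6A2 were called lower in 15 of 15 alternatives, 1 of which kept 1 overexpressing library and is not read. The count of 7 collagen genes lower was 3 with the GC content and length correction, 4 with that correction and a replicate block, and 3 to 11 with 1 library left out. The count of 0 higher was 1 with DESeq2, scaling by library size alone, no filter or the replicate block, 3 with the correction with or without the block, 0 to 2 with 1 library left out, and 1 without the 3 libraries with ACTG2 counts, an alternative chosen after seeing the data, where 6 were lower. That alternative sets 2 control libraries against 1 overexpressing library, which is assumed to vary like the controls. The count of 11 arose without overexpression replicate 1, 3 without control replicate 2 or overexpression replicate 3, and 4 without control replicate 1. The median of -0.152 was -0.0564 with the correction, -0.0532 with the block too, and -0.205 to -0.106 with 1 library left out. The 30 pathway calls were 13 to 46 with 1 library left out and 49 without the 3 libraries with ACTG2 counts. Over all genes 1731 were lower and 1416 higher. These were 371 to 2716 and 163 to 2814 with 1 library left out, 3186 and 3579 without the 3 libraries (1 overexpressing library left), and the higher calls were 2384 with no filter, 2138 with the replicate block and 2136 with block and correction. Same-numbered libraries had deviations correlated at 0.25, -0.0486 and 0.0297, so the numbers were not taken as pairs; under the replicate block 8 collagen genes were lower. The causes were not tested.

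Signs turned only in genes not called by the first test. With the correction, and then with the block too, the log2 fold change was -0.0359 and -0.0351 for COL11A1, 0.138 and 0.137 for COL27A1, 0.113 and 0.113 for COL4A2, -0.0564 and -0.0532 for COL4A4, 0.191 and 0.191 for COL16A1, 0.0818 and 0.0845 for COL9A2, -0.0329 and -0.0354 for COL8A1, 0.106 and 0.106 for PLOD1, -0.0342 and -0.0351 for PLOD2, and 0.179 and 0.18 for PLOD3. COL16A1 was 5.86e-05 with DESeq2, 0.0135 by library size alone and 0.00724 unfiltered, P4HA2 was 0.0106 and 0.00581 in these last settings, and COL4A4 was -3.59e-05 with limma-voom. Without the 3 libraries COL27A1 was 0.0459, COL4A6 0.184, COL14A1 0.182, COL16A1 0.101, P4HA1 0.00284, P4HB -0.0153 and SERPINH1 -0.00692. With 1 library left out the range was -0.172 to 0.213 for COL11A1, -0.0955 to 0.0554 for COL27A1, -0.402 to 0.0266 for COL4A3, -0.0313 to 0.0468 for COL4A4, -0.186 to 0.0799 for COL4A6, -0.168 to 0.141 for COL14A1, -0.069 to 0.0589 for COL16A1, -0.441 to 0.164 for COL9A2, -0.0758 to 0.214 for COL8A1, -0.0585 to 0.0336 for P4HA2 and -0.0991 to 0.0229 for PLOD3.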
